A study of Mus musculus with 8 samples.

Results

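The Snrpn-Ube3a imprinted cluster of mouse chromosome 7 was examined in RNA-seq of germline stem (GS) cells. GS cells are spermatogonia kept in long-term culture, among them the stem cells of spermatogenesis. Its 6 genes, Snrpn, Ndn, Magel2, Mkrn3, Ube3a and Peg12, were taken by name from the 31010 genes of the deposited table. All 8 lines were labelled WT and B6 and were maintained with FGF2 and GDNF. The 4 ICSI lines (11, 17, 20 and 21) came from F1 mice born after intracytoplasmic sperm injection, and the 4 control lines (29, 37, 44 and 45) carried the treatment label "no". The source label of control lines 29 and 37 was natural mating, and the study describes control-F1 mice as sired by natural mating. According to its methods, CD9-expressing cells of mature testes founded the lines. The labels do not tie the lines to single mice, although the study numbers its F1 mice and the line numbers occur among them. Here n counts lines, and a p-value measures only the spread between lines.

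The titles were written in 2 forms. Control 29, control 37, ICSI 11 and ICSI 17 had titles of form 1, while control 44, control 45, ICSI 20 and ICSI 21 had titles of form 2. The labels name other versions of the processing tools for each form but do not say what else set the forms apart. The study's methods give a single set of versions for all lines. Between 24692980 and 44249863 reads per line were recovered from the values, and the lines of form 2 were the deeper ones. Of 14 markers of undifferentiated spermatogonia, none was at 0 in every line, and their summed FPKM (fragments per kilobase of exons, adjusted for library size) was 797 to 1284 in control lines and 810.5 to 1232 in ICSI lines. Of 20 fibroblast markers, none was at 0 in every line either, and their sum was 325 to 1234 in control lines and 384 to 786 in ICSI lines. A gelatin step against feeder fibroblasts is part of the study's gene expression methods. Sertoli, Leydig, peritubular, macrophage and neuron markers each summed to 17.3 FPKM or less in every line, and those of differentiating germ cells to 115 to 175. Sycp3 weighed most in this last sum, at 67.7 to 136 FPKM. Kit, Stra8, Spo11, Tnp1 and Prdm9 of the same list were above 0 in every line, with Prdm9 averaging 0.699 FPKM. Acrv1 averaged 0.0167 FPKM, and Prm1 was at 0 in every line, as was the Leydig marker Cyp17a1. The part of differentiating cells in the cultures was not tested.

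The cluster is the mouse counterpart of the region affected in Prader-Willi and Angelman syndromes. In most tissues Snrpn, Ndn, Magel2, Mkrn3 and Peg12 are transcribed from the paternal copy, while an imprinting centre at the Snrpn promoter is methylated on the maternal one. Ube3a is transcribed from both copies in most cells and from the maternal copy in neurons, where the antisense RNA Snhg14 silences the paternal one. Male germ cells carry paternal marks on both copies. FPKM values add up both parental copies, and in bulk RNA fewer expressing cells and less RNA per cell cannot be told apart.

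In GENCODE annotation of GRCm38, Ube3a spans 59228750 to 59311536 on the plus strand of chromosome 7 and Snrpn 59982495 to 60140219 on the minus strand. The other 4 genes lie together more than 2.2 Mb from the Snrpn start and have 1 exon each. Ndn spans 62346569 to 62350262 and Magel2 62377010 to 62381640 on the plus strand. Mkrn3 spans 62417593 to 62420139 and Peg12 62461871 to 62464510 on the minus strand. Starts of Ndn and Peg12 lie 118 kb apart.

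RefSeq promoter windows of 300 bases on GRCm38.p6 were found for all 6 genes. Windows are shown for the imprinting centre, for Ndn as the gene with the highest mean FPKM as deposited, and for Ube3a, which differed between the label forms. Capitals mark CpG dinucleotides, the bases at which imprints are written, and each window reads 5′ to 3′ on the strand of its gene. The first window, chr7:60005150-60005449 on the minus strand, belongs to Snrpn and to Snurf, the upstream reading frame of the same transcript. The Ndn window is chr7:62348027-62348326 on the plus strand and lies inside the longer GENCODE model of the gene. The Ube3a window is chr7:59228500-59228799 on the plus strand.
Snrpn and Snurf promoter: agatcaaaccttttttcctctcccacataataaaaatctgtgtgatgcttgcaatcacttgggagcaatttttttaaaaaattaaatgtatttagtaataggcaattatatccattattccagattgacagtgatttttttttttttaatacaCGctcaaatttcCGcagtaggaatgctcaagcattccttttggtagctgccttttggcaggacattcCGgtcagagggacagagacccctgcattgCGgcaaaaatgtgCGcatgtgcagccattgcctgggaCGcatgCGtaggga
Ndn promoter: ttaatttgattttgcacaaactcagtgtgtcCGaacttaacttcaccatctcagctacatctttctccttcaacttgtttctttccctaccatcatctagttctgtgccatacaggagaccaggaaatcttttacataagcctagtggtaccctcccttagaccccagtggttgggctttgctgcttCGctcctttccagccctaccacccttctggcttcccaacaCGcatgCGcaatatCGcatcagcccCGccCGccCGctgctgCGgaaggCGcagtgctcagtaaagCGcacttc
Ube3a promoter: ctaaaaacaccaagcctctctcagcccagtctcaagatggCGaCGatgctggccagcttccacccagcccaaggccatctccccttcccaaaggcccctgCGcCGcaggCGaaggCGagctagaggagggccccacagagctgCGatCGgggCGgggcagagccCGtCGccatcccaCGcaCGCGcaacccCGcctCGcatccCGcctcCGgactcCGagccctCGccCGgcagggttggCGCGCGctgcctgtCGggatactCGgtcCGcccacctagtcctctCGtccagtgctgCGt

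The Ube3a window held 29 CpGs at 69.0% GC, more CpGs than 87.1% of 32817 promoter windows in the mouse table. The window at the imprinting centre held 7 CpGs at 40.3% GC, and the Ndn window 11 at 51.0%. Mkrn3, Peg12 and Magel2 windows held 15, 12 and 10 CpGs, against a median of 7 over all windows. RefSeq gives Snrpn 3 further start sites upstream, whose windows held 4, 3 and 2 CpGs. The longest run of bases in all 4 Snrpn windows and the Ndn window, found by comparing them, was ACGCATGCG, which 0.801% of all windows hold on either strand. The windows of Ube3a, Magel2, Mkrn3 and Peg12 lacked these letters, from which nothing follows for any factor.

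The study assayed methylation at this promoter with primers for bisulfite-converted DNA. Its Snrpn forward primer matched bases 35 to 62 of the imprinting centre window once each cytosine was read as T, at chr7:60005388-60005415. Both sequences are shown because they place 1 end of the assay upstream, in the direction of the gene, of the CpGs in capitals above. The reverse primer was not placed here.
Snrpn bisulfite forward primer: aatttgtgtgatgtttgtaattatttgg
Site in the reference: aatctgtgtgatgcttgcaatcacttgg

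Its RT-PCR primers for Snrpn, shown here because they say which RNA was amplified, both matched 2 of 2 Snrpn transcripts of the annotation. No transcript of Snurf, Gm38393, Snrpb or the other 5 cluster genes held both sites, and 1 Gm38393 transcript held the forward site alone.
Snrpn RT-PCR forward primer: tgctgctgttgctgctact
Snrpn RT-PCR reverse primer: aggtgggcctctaattcct

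All 6 genes were above 0 in every line. Ndn and Snrpn averaged 12.3 and 9.04 FPKM, Ube3a and Mkrn3 4.70 and 2.64, and Peg12 and Magel2 0.461 and 0.151. In the ranking of 23964 genes above 0, Ndn was higher than 80.4% and Snrpn higher than 75.7%. Ube3a was higher than 66.2% of those genes and Mkrn3 than 59.1%, while Peg12 and Magel2 were higher than 43.0% and 33.2%.

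**Figure D1:**
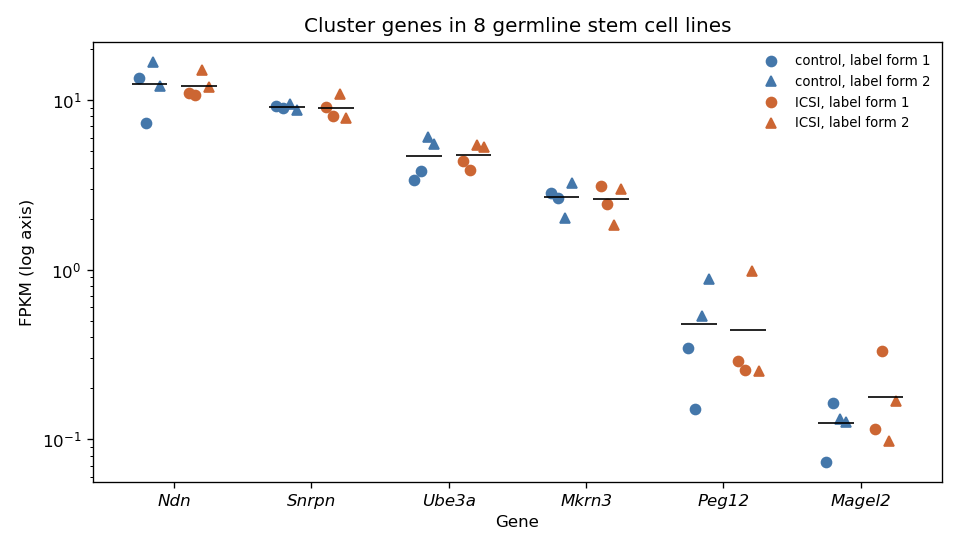
FPKM of the 6 cluster genes (log axis) in each of the 8 lines, with control lines in blue, ICSI lines in orange, circles for label form 1, triangles for form 2 and black bars for the mean of 4 lines. Control and ICSI points overlap for every gene, and for Ube3a the triangles all lie above the circles.

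Ndn encodes necdin, a MAGE family protein that restrains cell cycle progression and promotes neuronal differentiation. Its level was 13.4, 7.36, 16.7 and 12.2 FPKM in control lines 29, 37, 44 and 45. In ICSI lines 11, 17, 20 and 21 it was 11.0, 10.7, 15.0 and 11.9. Control line 37 was the lowest and control line 44 the highest, so the ICSI lines lay within the range of the control lines. The level varied 2.27-fold between lines.

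Snrpn encodes SmN, a subunit of the Sm ring of spliceosomal particles. It was at 9.18, 8.97, 9.53 and 8.77 FPKM in control lines 29, 37, 44 and 45, and at 9.09, 8.002, 10.9 and 7.86 in ICSI lines 11, 17, 20 and 21. Snrpn varied least of the 6 genes, with a coefficient of variation of 10.5% over the 8 lines. ICSI line 20 was the highest and ICSI line 21 the lowest, and all control lines lay between them. Ndn was higher than Snrpn in 7 of 8 lines, but their ranges overlapped. Of the 2159 exon bases of Snrpn, 27.3% also belong to exons of Gm38393 on the same strand, a gene not analysed here, and 216 of them are the whole of Snurf. Snurf was listed at 0 in every line, so reads there could not be assigned to one gene.

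Mkrn3, a makorin whose loss is known from early puberty in humans, was at 2.82, 2.63, 2.01 and 3.26 FPKM in control lines 29, 37, 44 and 45. It was at 3.10, 2.45, 1.83 and 3.01 in ICSI lines 11, 17, 20 and 21. Control line 44 and ICSI line 20, both of label form 2, were lowest, and the other lines of that form, 45 and 21, were among the highest 3.

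Peg12, also called Frat3, belongs to the Frat family of GSK3 inhibitors that act in Wnt signalling. It was at 0.343, 0.152, 0.532 and 0.884 FPKM in control lines 29, 37, 44 and 45, and at 0.288, 0.255, 0.978 and 0.253 in ICSI lines 11, 17, 20 and 21. These values rested on 10 to 103 reads. ICSI line 20 stood apart from the other 3 ICSI lines, which were within 0.253 to 0.288. Control line 45 was nearly as high as ICSI line 20.

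Magel2 encodes a MAGE protein that joins the ubiquitin ligase TRIM27 and the retromer in endosomal recycling. Its level was 0.0734, 0.164, 0.132 and 0.127 FPKM in control lines 29, 37, 44 and 45, and 0.115, 0.329, 0.0976 and 0.169 in ICSI lines 11, 17, 20 and 21. Only 9 to 43 reads stood behind each value, above the 3 reads that a count of 0 allows, which is 0.0147 to 0.0260 FPKM for this gene. ICSI line 17 was the highest and control line 29 the lowest. Peg12 was higher than Magel2 in 6 of 8 lines and their ranges overlapped.

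Ube3a encodes the E3 ubiquitin ligase E6AP. It was at 3.38, 3.81, 6.03 and 5.49 FPKM in control lines 29, 37, 44 and 45, and at 4.35, 3.88, 5.41 and 5.27 in ICSI lines 11, 17, 20 and 21. The 4 lines of label form 1 were all below the 4 lines of form 2. Of its 20626 exon bases, 27.3% lie opposite exons of Snhg14, Gm44560 or 9330162G02Rik, and the sources name different library kits, so reads of both strands may be mixed there.

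Neighbours in the order Snrpn, Ube3a, Mkrn3 and Peg12 had ranges that did not overlap. The order depends on the length by which reads are divided, which for Ube3a was the union of exons of 18 transcripts. Per base of its longest coding transcript (9856 bases), Ube3a would be at 9.84 FPKM and above Snrpn at 9.40, with overlapping ranges. Per exon base that no other gene shares on its strand, Snrpn would be at 12.4 FPKM, against 12.3 for Ndn. These lengths were chosen after the data were seen, and they left Ndn at 3694 bases. The RefSeq start of Ndn lies 1708 bases inside that model. A shorter Ndn model would give it a higher FPKM if few reads lay in the bases left out, which was not examined. The order of Ndn and Snrpn is therefore not settled by these lengths.

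**Figure D2:**
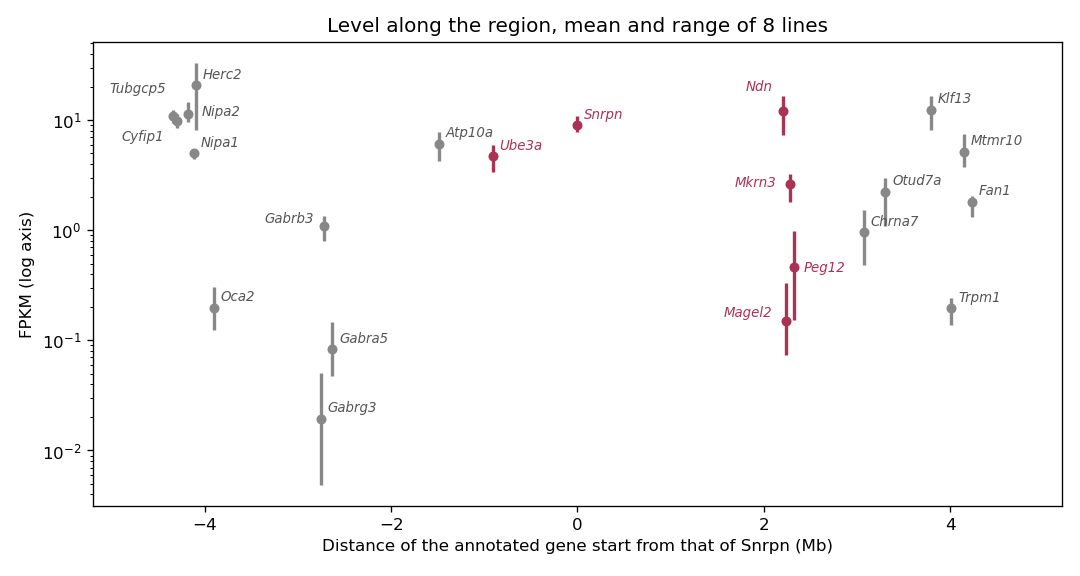
Mean FPKM (points) and range over 8 lines (bars), on a log axis, of the 6 cluster genes (red) and 16 neighbouring genes (grey), against the distance of each annotated start from that of Snrpn in Mb. Ndn and Magel2, whose starts are both between 2.2 and 2.3 Mb away, are at 12.3 and 0.151 FPKM.

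The comparison of ICSI with control lines asks whether conception by injection left a difference in cluster RNA in the germline of the offspring. None of the 4 cluster genes in the fit passed the test, and for each of the 6 genes the ICSI and control lines overlapped. Levels of the tested genes in ICSI lines were 0.969 to 1.01 times those of control lines. By limma on log2(FPKM + 1), 0 of 12000 genes passed an adjusted p of 0.05 (0%), 55 had an unadjusted p under 0.05, and limma-voom on recovered reads also called 0. The groups did not overlap for 0.442% of the genes tested.

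Ndn averaged 12.4 ± 3.86 FPKM (SD, n = 4) in control lines and 12.1 ± 1.97 (n = 4) in ICSI lines. The difference in mean log2(FPKM + 1), ICSI minus control, was 0.01 with a 95% interval of -0.48 to 0.50 (exact permutation test, two-sided, p = 0.971). Snrpn averaged 9.11 ± 0.326 FPKM in control and 8.97 ± 1.41 in ICSI lines. Its difference was -0.03 with an interval of -0.30 to 0.24 (exact permutation p = 0.886). Mkrn3 averaged 2.68 ± 0.515 and 2.597 ± 0.589 FPKM in control and ICSI lines. Its difference was -0.04, from -0.41 to 0.33 (exact permutation p = 0.8). Ube3a averaged 4.68 ± 1.28 and 4.73 ± 0.736 FPKM, and its difference was 0.03, from -0.37 to 0.43 (exact permutation p = 0.886). The adjusted p of these 4 genes by limma was 1.00. With the label form as a covariate, limma again called 0 genes, and 140 had an unadjusted p under 0.05. The interval of Ube3a then narrowed to -0.20 to 0.26, while those of Ndn, Mkrn3 and Snrpn were -0.40 to 0.42, -0.40 to 0.32 and -0.29 to 0.22. Intervals of this width leave room for changes of either sign, so equal levels were not shown.

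Peg12 and Magel2 had a mean below 1 FPKM and were not part of that fit. Peg12 averaged 0.478 ± 0.312 FPKM in control and 0.444 ± 0.357 in ICSI lines (exact permutation p = 0.857), and Magel2 0.124 ± 0.0377 and 0.178 ± 0.106 (exact permutation p = 0.457). The ICSI mean of Magel2 rested on line 17. Without that line its difference on the log2 scale went from 0.06 to 0.0039.

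**Figure D3:**
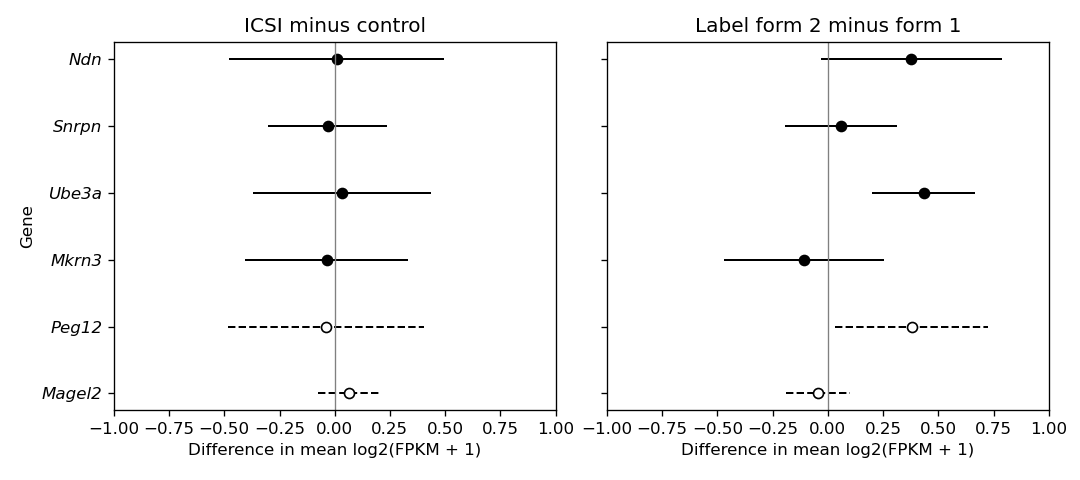
Difference in mean log2(FPKM + 1) between ICSI and control lines (left) and between lines of label form 2 and form 1 (right) for each cluster gene, with 95% intervals from limma as bars. Open points with dashed bars are genes below the filter of 1 FPKM, taken from a fit without the filter. Every interval on the left spans 0, and on the right those of Ube3a and Peg12 do not.

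The sum of fibroblast markers was highest in control line 29 (1234 FPKM), control line 44 (1140) and ICSI line 20 (786), and the same 3 lines had the highest Ndn levels. The order was not kept among the other lines. Control line 45 had the lowest sum (325) and Ndn at 12.2 FPKM, and ICSI line 17 a sum of 549 and Ndn at 10.7. All 20 markers were lower on average in ICSI lines, with a median log2 difference of -0.24, but 0 had an unadjusted p under 0.05. Of the 12000 genes tested, 6684 were lower on average in ICSI lines. Without control lines 29 and 44, the Ndn difference between ICSI and control was 0.31 instead of 0.01 (exact permutation p = 0.400, where 2 lines against 4 cannot go below 0.0667), and that of Snrpn was 0.0037. This exclusion was chosen after seeing the data, and the part of fibroblast RNA in the Ndn level was not tested.

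**Figure D4:**
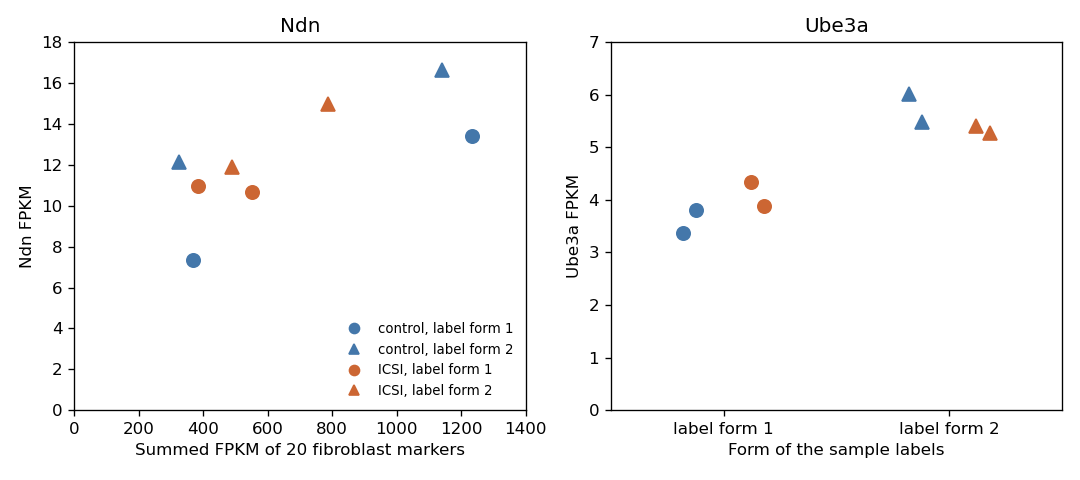
Left, Ndn FPKM of each line against the summed FPKM of 20 fibroblast markers. Right, Ube3a FPKM of each line by label form, with control lines in blue and ICSI lines in orange. The 3 lines with the highest marker sums also have the 3 highest Ndn levels, and Ube3a is 3.38 to 4.35 in form 1 and 5.27 to 6.03 in form 2.

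The label forms separated Ube3a. Lines of form 1 averaged 3.85 ± 0.398 FPKM and those of form 2 averaged 5.55 ± 0.330 (n = 4 each), a ratio of 1.44. The difference on the log2 scale was 0.43 ± 0.10 (SE) with an adjusted p of 0.0283 by limma with the group as covariate. Of the 4 cluster genes in the fit, 1 therefore passed. Across all genes tested, 10.2% were higher and 5.76% lower in form 2. Lines of the forms did not overlap, as for Ube3a, in 16.0% of genes higher in form 2, and in 10.8% of genes lower in form 2. Without the filter on low genes the adjusted p was 0.0517. It was 0.0599, 0.0847, 0.0708 or 0.0596 without control line 29, 37, 44 or 45, and 0.0691 or 0.0821 without ICSI line 11 or 17, so each of these lines decided the call. The difference itself stayed between 0.38 and 0.49. The summed FPKM of the 14 markers of undifferentiated spermatogonia also separated the forms, at 797 to 903 in form 1 and 1073 to 1284 in form 2. The germ cell genes Dazl and Ddx4 weighed most in this sum. They averaged 277 and 195 FPKM in form 1, and 397 and 253 in form 2. The sum therefore does not tell whether undifferentiated cells differed. Of these 14 markers, 9 were called higher and 2, Utf1 and Pou5f1, lower in form 2. The part of the markers in the Ube3a difference was not tested.

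Within the forms, Ube3a of the ICSI lines lay on opposite sides of the controls. In form 1 both ICSI lines (4.35 and 3.88 FPKM) were above both controls (3.38 and 3.81), and in form 2 both (5.41 and 5.27) were below (6.03 and 5.49). The log2 difference was 0.15 in form 1 and -0.09 in form 2, with an unadjusted p of 0.271 and an adjusted p of 1.00 for the interaction by limma. No gene of 12000 passed that interaction test (0%), and 147 had an unadjusted p under 0.05. For the other cluster genes, the log2 difference in form 1 and form 2 was -0.08 and 0.02 for Snrpn, 0.11 and -0.09 for Ndn, and 0.02 and -0.09 for Mkrn3. It was 0.03 and -0.11 for Peg12 and 0.12 and 0.0041 for Magel2.

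The other cluster genes did not pass the test between the forms. Ndn averaged 10.6 ± 2.48 FPKM in form 1 and 13.9 ± 2.30 in form 2 (adjusted p = 0.169 by limma). Snrpn averaged 8.81 ± 0.546 and 9.27 ± 1.295 (adjusted p = 0.735), and Mkrn3 averaged 2.75 ± 0.280 and 2.52 ± 0.710 (adjusted p = 0.654). Peg12 averaged 0.260 ± 0.0805 and 0.662 ± 0.334 FPKM (exact permutation p = 0.114), with control line 45 and ICSI line 20 highest and control line 44 next, all of form 2. In the fit without the filter the unadjusted p of Peg12 was 0.0364 and the adjusted p 0.171 by limma. Magel2 averaged 0.171 ± 0.112 and 0.131 ± 0.0293 (exact permutation p = 0.714).

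The genes around the cluster were compared in the same fits. Atp10a, a phospholipid flippase gene next to Ube3a, was lower in form 2. Its levels were 6.97 to 7.79 FPKM in form 1 and 4.29 to 5.62 in form 2 (log2 difference -0.54, adjusted p = 0.0168 by limma). The adjusted p was 0.0621, 0.0538 or 0.0545 without control line 37, ICSI line 11 or ICSI line 17. Ube3a and Atp10a thus changed in opposite directions between the forms. Of 15 further neighbours, 10 were tested, and 1 of these passed, also downwards, as did 5.76% of all genes tested. This was Herc2, a large E3 ligase gene, at 23.9 to 32.9 FPKM in form 1 and 8.22 to 21.2 in form 2 (adjusted p = 0.0480). The Herc2 call was lost without the filter (adjusted p = 0.1005) and without control line 29, 37 or 44 or ICSI line 11, 17 or 20 (adjusted p = 0.0776 to 0.134). Klf13, a transcription factor gene and the next most abundant neighbour at 12.5 FPKM, did not pass (adjusted p = 0.0780). Between ICSI and control lines, 0 of these 11 genes passed. The transcripts Snhg14 and Ipw and the Snord115 and Snord116 clusters were not analysed here.

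The 7 Sm core genes were all higher than Snrpn. Snrpb, which encodes the SmB subunit that SmN replaces, averaged 195 FPKM, and the other Sm core genes ranged from 31.7 (Snrpd1), 31.9 (Snrpd3) and 33.4 (Snrpd2) over 41.8 (Snrpg) and 62.3 (Snrpf) to 90.7 (Snrpe). Snrpn made up 4.25% ± 0.388 (SD, n = 4) of Snrpn plus Snrpb FPKM in control lines and 4.64% ± 0.312 (n = 4) in ICSI lines (exact permutation test, two-sided, p = 0.200). The share ranged from 3.74% in control line 37 to 5.04% in ICSI line 20, and the groups overlapped. It rests on Snrpn FPKM over all 2159 exon bases. Over the bases not shared on its strand Snrpn would be at 12.4 FPKM, which would raise the share in every line. The difference of 0.390 percentage points fell to 0.220 without control line 37 and 0.254 without ICSI line 20, and was 0.520 without control line 44 (exact permutation p = 0.0857). None of the 7 Sm core genes passed the test between groups or forms.

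Of the MAGE family, Maged1, a relative that binds the p75 neurotrophin receptor, averaged 117 FPKM and Maged2 16.5, against 12.3 for Ndn and 0.151 for Magel2. Mageh1 was at 3.50, Nsmce3, a subunit of the SMC5/6 complex, at 2.43, Magee1 at 0.802 and Magee2 at 0.742. The makorins Mkrn1 and Mkrn2 averaged 23.6 and 16.5 FPKM, and Mkrn3 2.64. Frat1 and Frat2 averaged 1.98 and 4.14 FPKM, and Peg12 0.461. None of the 8 relatives tested in these 3 families passed the test between groups or forms. All 4 tested MAGE relatives were lower on average in ICSI lines, by 0.03 to 0.15 on the log2 scale. The same held for 6684 of the 12000 genes tested, and the lowest unadjusted p of these relatives was 0.365 by limma.

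Of 12 partners of the MAGEL2 and UBE3A proteins, 0 passed between ICSI and control lines. Between the label forms 5 passed, 4 higher and 1 lower in form 2. Across all genes tested, 10.2% were called higher and 5.76% lower in form 2. The retromer gene Vps26a was at 46.8 to 57.0 FPKM in form 1 and 80.5 to 91.7 in form 2 (adjusted p = 0.00792 by limma). Its partner Vps35 was at 11.0 to 12.03 FPKM in form 1 and 16.6 to 18.8 in form 2 (adjusted p = 0.00913). Both were called with each of the 8 lines left out in turn. Ube2d3, an E2 enzyme gene, was at 5.24 to 5.79 FPKM in form 1 and 7.48 to 8.29 in form 2 (adjusted p = 0.0211, and 0.0537 to 0.0723 without control line 37 or 44 or ICSI line 11 or 17). The most abundant partners, the proteasome ubiquitin receptor gene Psmd4 at 74.2 FPKM and the deubiquitinase gene Usp7 at 70.8, did not pass. Trim27, the ligase that MAGEL2 binds, averaged 15.5 FPKM.

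Of 10 factors that act on imprints or on the Snrpn imprinting centre, 0 passed between ICSI and control lines. Between the forms 3 passed, all lower in form 2, where 5.76% of all genes tested were called lower and 10.2% higher. Zfp57, a zinc finger protein that binds methylated imprints, was at 4.49 to 5.22 FPKM in form 1 and 2.63 to 3.21 in form 2 (adjusted p = 0.0144 by limma). Dppa3 (Stella), which protects maternal marks in the zygote, was at 1.59 to 2.90 FPKM in form 1 and 0.253 to 1.09 in form 2 (adjusted p = 0.0204). Dppa3 passed the filter of 1 FPKM only through form 1, with means of 2.29 in form 1 and 0.726 in form 2. Its lowest value rested on 7 reads. Ehmt2 (G9a), an H3K9 methyltransferase, was at 73.4 to 88.6 FPKM in form 1 and 53.8 to 68.5 in form 2 (adjusted p = 0.0409). Without control line 37, ICSI line 11 or ICSI line 17 the adjusted p of Zfp57 was 0.0520 to 0.0545, and without control line 37, control line 44 or ICSI line 11 that of Dppa3 was 0.0566 to 0.0694. The call of Ehmt2 was lost without the filter (0.0720) and without any line but ICSI line 21 (adjusted p = 0.0590 to 0.136). The most abundant factors, Trim28 at 140 FPKM and Dnmt1 at 96.8, did not pass. The median log2 difference between forms was -0.25 over these factors and 0.03 over all genes tested. The count of 3 and the median over the factors include Dppa3, which form 1 alone carried past the filter. A shift of the factors as a set was not tested.

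The genes whose log2(FPKM + 1) followed each cluster gene most closely over the 8 lines are given as a description only. For Snrpn they were Sap18 (Pearson's r = 0.974), Tomm22 (0.963) and Zmat2 (0.951), and for Mkrn3 Slc6a9 (0.974), Dpy19l4 (0.969) and Foxk1 (0.966). For Ndn they were H19 (0.967), another imprinted gene, on the same chromosome, Itm2c (0.965) and Vgll4 (0.957). For Ube3a they were Ammecr1 (0.995), Crebrf (0.993) and Iffo2 (0.992). Of 11999 genes, 622 had an r above 0.9 with Ube3a, against 50 with Snrpn, 95 with Ndn and 70 with Mkrn3. All 8 points share the division into label forms that separated Ube3a. Among the cluster genes themselves r ranged from -0.65 (Snrpn with Mkrn3) to 0.64 (Ube3a with Peg12), and of the 10 pairs among the genes other than Ube3a, 3 had a positive and 7 a negative r.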

How the data were processed

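RNA-seq of 8 GS cell lines was deposited as a table of FPKM values, which the authors made with cutadapt, STAR on mm10 and HTSeq, and scaled between libraries. The submitters' processing notes list STAR 2.7.9a for label form 1 and STAR 2.6.0c for form 2. The study's methods give only STAR 2.7.9a for all lines, so it is not settled whether the forms were processed apart. The authors' own log2 fold changes and adjusted p-values in the table were not used. Labels and methods name different library kits. Whole reads were recovered for 99.8% of genes above 0 (tolerance 0.001 reads). Samples were grouped by title.

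The test was limma 3.58.1 in R 4.3.3 (trend on mean expression) on log2(FPKM + 1), which understates changes of low genes, for the 12000 genes that averaged 1 FPKM or more, with Benjamini-Hochberg adjustment over all of them. It stands in for the authors' count model. Single genes were compared by exact permutation over 70 assignments, whose smallest p is 0.0286. These assignments ignored the label forms, so a difference between the forms counted as spread between lines. The label form difference was fitted with group as covariate. Floors cover counting error only.

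The cluster genes and all gene lists were chosen with earlier results of these data known. Named were all cluster genes, their neighbours in the imprinted domain and protein relatives, the 2 most abundant genes of the other lists and at most 3 that passed a test, and the 3 genes most correlated with each cluster gene. Values of marker lists were summed per line. Promoter sequences came from RefSeq, primers from the study's primer list, and gene models from GENCODE M21, which is older than the authors' release.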

Additional observations from a re-analysis of the deposited data

Results flagged for a closer look

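Peg12 in ICSI line 20 was at 0.978 FPKM, far from the other 3 ICSI lines at 0.253 to 0.288, with a gap of 0.951 of the whole range. Of 14 groups of 4 values examined, chance alone flags about 1 in 20.

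The ICSI difference of Ube3a was -0.0905 on the log2 scale in label form 2 and 0.15 in form 1, with every ICSI line above both controls in form 1 and below both in form 2. The test of the difference between the forms did not pass (unadjusted p = 0.271 by limma, adjusted p = 1.00).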

How the results depend on the processing

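Of 100 alternative values of the 6 ICSI differences, 85 kept their sign and 15 turned, at a size no larger than 0.41. The 85 include values that could not turn. Dropping the filter or adding the label form as a covariate leaves these differences unchanged. The exact permutation p, not used for the covariate fit, was no smaller than 0.114. With 1 line left out, the ICSI difference on the log2 scale ranged from -0.121 (ICSI line 20 out) to 0.0222 (ICSI line 21 out) for Snrpn, and from -0.200 (control line 37 out) to 0.159 (control line 44 out) for Ndn. It ranged from -0.129 to 0.0739 for Mkrn3, from -0.0837 to 0.144 for Ube3a, and from -0.200 to 0.0856 for Peg12. Without both control lines of highest fibroblast sum it was 0.0037 for Snrpn.

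Without the filter, 1 gene (Gm42745, mean 0.0995 FPKM, adjusted p = 0.0389 by limma, named after its values were seen) was called between ICSI and control lines, 1255 genes between the label forms instead of 1917, and 0 instead of 1 cluster gene, with the Ube3a difference at 0.434. With 1 line left out, 204 to 2693 genes and 0 to 1 cluster genes were called between the forms. The count was 1036, 284, 704 and 1059 without control line 29, 37, 44 and 45, and 204, 427 and 1229 without ICSI line 11, 17 and 20, all at least 1.5 times below the full count. The form difference then ranged from 0.382 to 0.485 for Ube3a, from -0.0363 to 0.135 for Snrpn and from -0.219 to 0.00257 for Mkrn3. By voom on reads it was -0.0133 for Snrpn, -0.266 for Magel2 and 1.13 for Peg12, and at pseudocounts of 0.1 and 0.01 it was -0.149 and -0.18 for Magel2 and 0.985 and 1.2 for Peg12, since a pseudocount of 1 compresses low values. The cause of the other changes was not tested. No paired analysis was possible because the control and ICSI lines share no replicate numbers. Depth limits Magel2 and Peg12, whose lowest values rest on 9 and 10 reads.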
